A study of Mus musculus with 6 samples.

Results

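Adenylyl cyclases, the heterotrimeric G protein subunits that steer them, cyclic AMP-dependent protein kinase (PKA) and A-kinase anchoring proteins form the pathway that makes cyclic AMP and turns it into phosphorylation. The 39 genes described here, of the 53715 genes in the count table, were chosen by name for these roles: 9 adenylyl cyclases, 2 stimulatory and 4 inhibitory G protein alpha subunits, 1 G protein beta subunit, 2 catalytic and 4 regulatory subunits of PKA, 3 PKA inhibitors, 10 A-kinase anchors, 2 Epac exchange factors and 2 phosphatase inhibitors that PKA acts on. RNA-Seq was done on whole cerebellum of 3 control and 3 *Slc39a8*-NSKO mice, all of them male animals aged 4 weeks, of the strain C57BL/6 in the labels and of C57BL/6J background in the methods. The *Slc39a8*-NSKO genotype pairs Cre recombinase under the synapsin I promoter with floxed *Slc39a8*, the gene of a transporter of manganese and other metal ions. It is meant to delete the gene in neurons, so that glial and vascular cells of the same tissue keep it. The study states that expression of this Cre may vary between brain regions, and deletion by cell type was not measured in these data. The sample labels call the control mice WT, while the study's text gives its controls as *Slc39a8* fl/fl, and whether the 3 control mice carried floxed alleles cannot be told from the labels. The comparison asks which transcripts of the cerebellum differ when the transporter gene is targeted in neurons.

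Estimated counts on genes per mouse ran from 14431260 to 20844267. *Slc39a8* had 99, 46 and 44 counts in the control mice and 38, 40 and 41 in the *Slc39a8*-NSKO mice, which do not overlap after scaling to library size. The log2 fold change was -0.83 ± 0.237 (SE, n = 3 each), with an adjusted p of 0.534 in edgeR's quasi-likelihood test. The defining markers of Purkinje and granule cells were abundant, with summed levels of 5701 to 6859 CPM (counts scaled to library size) for 5 Purkinje cell genes and 4446 to 4842 CPM for 5 granule cell genes over the 6 mice, and none of these 10 genes passed the test. In whole tissue, fewer cells of a type and less RNA per cell cannot be told apart.

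Cyclic AMP is made from ATP by membrane-bound adenylyl cyclases, which stimulatory G protein alpha subunits switch on and inhibitory ones switch off. It releases the catalytic subunits of PKA from their regulatory subunits and opens Epac, an exchange factor for the small GTPase Rap, while A-kinase anchors hold PKA at particular membranes and organelles. In the cerebellum the pathway is known for strengthening transmitter release at the synapses of granule cell parallel fibers, and PKA that reaches the nucleus phosphorylates the transcription factor CREB, which binds cyclic AMP response elements in promoters.

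All 39 genes had enough counts to be tested, from 30 counts for *Adcy4* in 1 control mouse to 45537 for *Adcy1* in 1 *Slc39a8*-NSKO mouse. None passed an adjusted p of 0.05 in edgeR's quasi-likelihood test, where 0.098% of the 16330 genes tested did, and their adjusted p values lay between 0.968 and 0.998. None had an unadjusted p below 0.05 either, against 5.39% of all genes tested. Without control mouse 1, 5 of the 39 did (*Adcy1*, *Adcy5*, *Adcy9*, *Pkia* and *Akap8*), against 8.6% of all genes, and none passed after adjustment, with a lowest adjusted p of 0.386 in edgeR's test. DESeq2's Wald test and limma-voom also called 0 of the 39, with 0.173% and 0.0735% of all genes called. The log2 fold changes of the 39 genes, *Slc39a8*-NSKO against control, ran from -0.13 for *Akap8* to 0.14 for *Adcy9* with a median of 0.05, beside a median of 0.0011 over all genes tested. They were above 0 for 29 of the 39 genes, or 74.4%, and for 50.5% of all genes tested.

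A p that misses the threshold does not show that the genotypes were alike, and the intervals say how large a difference the data allow. For all 39 genes the 95% interval of the fold change lay within 1.5-fold in either direction, which held for 73.8% of the genes tested. The widest was that of *Adcy4*, from -0.45 to 0.56 on the log2 scale, and the standard errors ran from 0.046 to 0.233 with a median of 0.068, beside 0.0958 over all genes. These genes were also more abundant than most, with a median of 72.0 CPM against 20.5 CPM over all genes tested. The standard error of a fold change tends to fall with abundance, and the part of abundance in these intervals was not tested. The plot of fold changes with their intervals shows the 39 genes by role.

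**Figure D1:**
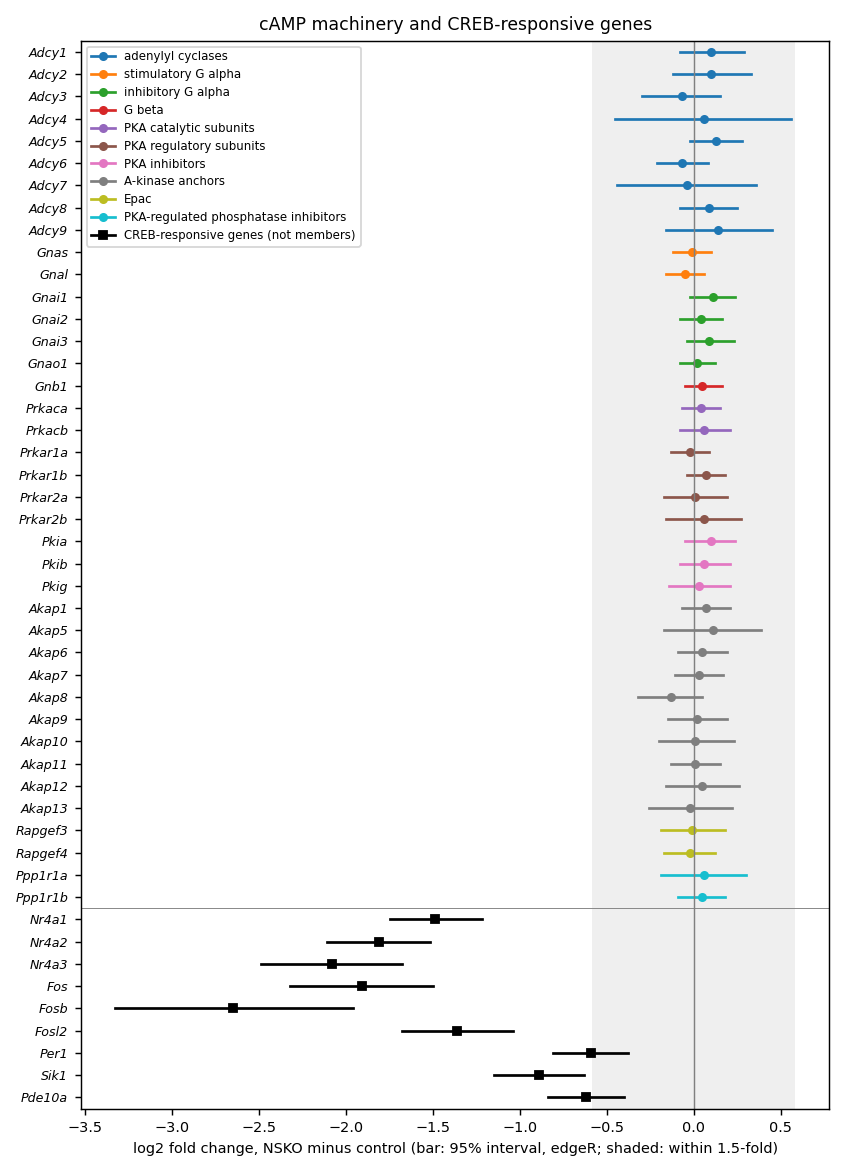
Log2 fold change of *Slc39a8*-NSKO against control mice for each of the 39 genes, grouped by role, with 95% intervals of edgeR's fit as horizontal lines 1.5-fold in either direction as the shaded band and 9 CREB-responsive genes as black squares at the bottom. The 39 points lie between -0.13 and 0.14, and each of their intervals stays inside the band.

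Levels of different genes were compared per length, as RPKM (counts scaled to library size and exon length). *Adcy1* (GRCm38, chr11:7063489-7178506, plus strand), the calcium- and calmodulin-stimulated cyclase of neurons, had 173, 135 and 150.2 RPKM in the control mice and 182, 150.5 and 159.8 RPKM in the *Slc39a8*-NSKO mice. The genotypes overlapped, and control mouse 2 was the lowest of the 6. Its log2 fold change was 0.10 ± 0.086 (SE, n = 3 each), with a 95% interval from -0.08 to 0.29 and an adjusted p of 0.994 in edgeR's test. *Adcy1* made up 78.6% ± 0.276 (SD, n = 3) of the summed RPKM of the 9 cyclases in control and 78.9% ± 1.51 (SD, n = 3) in *Slc39a8*-NSKO mice, so that 1 gene carried most of the cyclase RNA of this tissue in both genotypes.

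The other 8 cyclases together came to 37.1 to 46.3 RPKM per mouse. *Adcy5*, a cyclase inhibited by calcium and by inhibitory G proteins and known as the main form of the striatum, was next with a mean of 10 RPKM. It had 1542, 892 and 1080 counts in the control mice and 1454, 1463 and 1468 in the *Slc39a8*-NSKO mice, which is 10.4, 8.63 and 9.66 RPKM against 10.1, 10.5 and 10.9 RPKM. Control mouse 1 lay among the *Slc39a8*-NSKO mice and the other control mice below them. The log2 fold change of *Adcy5* was 0.13 ± 0.070 (SE), with an interval from -0.02 to 0.28 and an unadjusted p of 0.0816 in edgeR's test, the lowest of the 39 genes, and its adjusted p was 0.968.

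*Adcy2* followed at 9.44 RPKM, a cyclase that G protein beta-gamma subunits stimulate, and its range over the 6 mice overlapped those of *Adcy5* and of *Adcy9*, at 6.60 RPKM. *Adcy9*, the cyclase that responds poorly to forskolin, had the largest fold change of the 39 at 0.14 ± 0.142 (SE), with values of 4.80 to 7.68 RPKM in control and 5.73 to 7.80 RPKM in *Slc39a8*-NSKO mice that overlapped almost throughout. *Adcy6*, the calcium-inhibited relative of *Adcy5*, stood at 6.11 RPKM, *Adcy3*, the cyclase of neuronal and olfactory cilia, at 4.89 RPKM and *Adcy8*, the other calmodulin-stimulated form, at 4.05 RPKM. The ranges of *Adcy9* and *Adcy6* overlapped, as did those of *Adcy3* and *Adcy8*, though such ranges do not compare 2 genes within a mouse. Within mice, *Adcy9* was below *Adcy6* in mouse 2 of each genotype and above it in the others. *Adcy3* was above *Adcy8* in every mouse but *Slc39a8*-NSKO mouse 3, at 4.33 and 4.34 RPKM. *Adcy7* and *Adcy4*, which like *Adcy2* respond to beta-gamma subunits, were lowest at 0.939 and 0.58 RPKM and had the largest standard errors of the 39, 0.186 and 0.233 on the log2 scale. The plot of levels by mouse gives the order within each role.

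**Figure D2:**
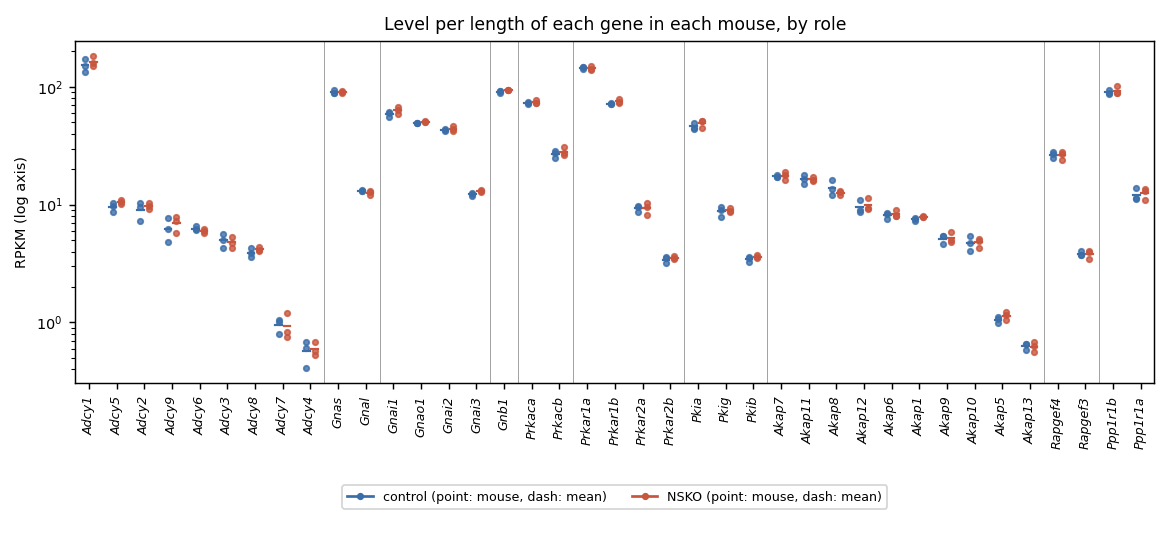
Level of each of the 39 genes in each of the 6 mice, in RPKM on a log axis, grouped by role, with control mice in blue, *Slc39a8*-NSKO mice in red and dashes at the genotype means. *Adcy1*, at 135 to 182 RPKM, stands far above the other 8 cyclases.

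Of the stimulatory alpha subunits, *Gnas* (chr2:174284320-174346744, plus strand), which couples most stimulatory receptors to cyclase, had 88.6, 93.9 and 89.5 RPKM in the control mice and 90.2, 91.9 and 88.0 RPKM in the *Slc39a8*-NSKO mice, with 15108 to 20529 and 18534 to 20163 counts. The *Slc39a8*-NSKO mice covered nearly the same range as the control mice, and the log2 fold change was -0.01 ± 0.049 (SE), with an interval from -0.12 to 0.10 and an adjusted p of 0.997 in edgeR's test. *Gnal*, the form that olfactory neurons and striatum use in place of *Gnas*, had 3040, 2123 and 2268 counts in the control mice and 2839, 2837 and 2571 in the *Slc39a8*-NSKO mice. After scaling these were 13.1, 13.2 and 13.0 RPKM against 12.7, 13.0 and 12.2 RPKM, and before rounding the highest *Slc39a8*-NSKO mouse was under the lowest control mouse. Its log2 fold change was -0.05 ± 0.051 (SE), with an interval from -0.16 to 0.06 and an unadjusted p of 0.324 in edgeR's test. *Gnas* was 7.01 ± 0.172 (SD, n = 6) times as high as *Gnal* per length, or 10.2 times when the longest annotated transcript of each gene was taken as its length. *Gnas* has alternative first exons and shares 2457 exonic bases with *Nespas* and *Gm20721* on the other strand, and *Gnal* shares 852 with *Mppe1*, so that their counts may hold reads of these partners. The same limit holds for *Adcy3*, which shares 1380 with *Cenpo*, *Adcy6*, 605 with *Gm29331*, and *Ppp1r1b*, 460 with *1700003D09Rik*, on the other strand. *Prkar1b* shares 341 with *Gm15672* on the same strand, and *Rapgef4*, *Gnao1*, *Adcy2*, *Akap9* and *Akap7* share fewer.

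Inhibitory alpha subunits lower cyclase activity. *Gnai1* had 3961, 2520 and 2934 counts in the control mice and 4237, 3927 and 3493 in the *Slc39a8*-NSKO mice, or 61.0, 55.9 and 60.1 RPKM against 67.7, 64.3 and 59.2 RPKM. *Slc39a8*-NSKO mouse 3 lay among the control mice and the other *Slc39a8*-NSKO mice above them. The log2 fold change of *Gnai1* was 0.11 ± 0.060 (SE), with an interval from -0.02 to 0.24 and an unadjusted p of 0.0898 in edgeR's test, the next lowest of the 39 after *Adcy5*.

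*Gnao1*, the abundant alpha subunit of brain that acts mainly on ion channels, varied least of the 39 genes among control mice, at 49.7, 49.6 and 49.7 RPKM from 11385, 7887 and 8545 counts. The *Slc39a8*-NSKO mice had 50.9, 50.1 and 50.5 RPKM from 11230, 10778 and 10507 counts, all above the control mice. *Gnao1* had a log2 fold change of 0.02 ± 0.046 (SE), with an interval from -0.08 to 0.12 and an unadjusted p of 0.623 in edgeR's test. *Gnai3*, a broadly expressed form, had 847, 556 and 622 counts in the control mice and 857, 829 and 792 in the *Slc39a8*-NSKO mice. At 12.5, 11.9 and 12.3 RPKM against 13.2, 13.0 and 12.9 RPKM the genotypes did not overlap either. The log2 fold change of *Gnai3* was 0.09 ± 0.062 (SE), with an interval from -0.04 to 0.23 and an unadjusted p of 0.161 in edgeR's test.

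*Gnai2*, the remaining inhibitory form, overlapped between the genotypes at a mean of 43.7 RPKM. The order of the 4 inhibitory forms, *Gnai1*, *Gnao1*, *Gnai2* and *Gnai3*, depends on the length used, and with the longest annotated transcript it was *Gnao1*, *Gnai2*, *Gnai1* and *Gnai3*. The sum of the inhibitory forms over that of the stimulatory forms was 1.58 ± 0.0749 (SD, n = 3) in control and 1.67 ± 0.0181 (SD, n = 3) in *Slc39a8*-NSKO mice without overlap, and the mean over the 6 mice was 1.63, or 0.885 with the longest transcripts. No test was made of this ratio. *Gnb1*, a beta subunit that binds both kinds of alpha subunit, had 8103, 5467 and 6088 counts in the control mice and 8071, 7811 and 7565 in the *Slc39a8*-NSKO mice. These were 91.6, 89.1 and 91.7 RPKM against 94.7, 94.0 and 94.2 RPKM, with all *Slc39a8*-NSKO mice above the control mice. *Gnb1* had a log2 fold change of 0.05 ± 0.047 (SE), with an interval from -0.05 to 0.16 and an unadjusted p of 0.268 in edgeR's test.

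*Prkaca* (chr8:83972993-83996443, plus strand), the broadly expressed catalytic subunit of PKA, had 3807, 2604 and 2780 counts in the control mice and 3887, 3529 and 3434 in the *Slc39a8*-NSKO mice, which is 73.8, 72.8 and 71.8 RPKM against 78.2, 72.8 and 73.3 RPKM. The genotypes overlapped, with *Slc39a8*-NSKO mouse 1 the highest. Its log2 fold change was 0.04 ± 0.052 (SE), with an interval from -0.07 to 0.15 and an adjusted p of 0.994 in edgeR's test. *Prkacb*, the catalytic subunit with several brain isoforms, had 24.9 to 28.8 RPKM in control and 26.5 to 30.7 RPKM in *Slc39a8*-NSKO mice. *Prkaca* made up 73.0% ± 1.36 (SD, n = 3) of the catalytic sum in control and 72.7% ± 0.762 (SD, n = 3) in *Slc39a8*-NSKO mice, and 59.2% over all mice when the longest transcripts were used.

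Regulatory subunits hold the catalytic ones inactive until cyclic AMP binds. *Prkar1a* (chr11:109649405-109669656, plus strand), the type I subunit of most tissues, had 13371, 8754 and 9965 counts in the control mice and 13063, 11694 and 11625 in the *Slc39a8*-NSKO mice, or 149, 141 and 148 RPKM against 151, 139 and 143 RPKM. The highest and the lowest mouse were both *Slc39a8*-NSKO mice, and the log2 fold change was -0.02 ± 0.052 (SE), with an interval from -0.13 to 0.09 and an adjusted p of 0.994 in edgeR's test. *Prkar1b*, the neuronal type I subunit, had 5646, 3984 and 4271 counts in the control mice and 6036, 5496 and 5278 in the *Slc39a8*-NSKO mice. At 71.5, 72.7 and 72.0 RPKM against 79.3, 74.1 and 73.6 RPKM the genotypes did not overlap, with *Slc39a8*-NSKO mouse 1 well above the rest. *Prkar1b* had a log2 fold change of 0.07 ± 0.051 (SE), with an interval from -0.04 to 0.18 and an unadjusted p of 0.19 in edgeR's test.

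The type II subunits, which most A-kinase anchors prefer, were much lower, *Prkar2a* at 9.35 RPKM and *Prkar2b* at 3.49 RPKM, and both overlapped between the genotypes. Type I subunits thus made up 94.5% ± 0.133 (SD, n = 3) of the regulatory RNA in control and 94.4% ± 0.370 (SD, n = 3) in *Slc39a8*-NSKO mice, and 94.8% over all mice with the longest transcripts. The regulatory sum was 2.28, 2.31 and 2.35 times the catalytic sum in the control mice and 2.25, 2.28 and 2.27 times in the *Slc39a8*-NSKO mice. The *Slc39a8*-NSKO mice were lower without overlap before rounding, and this ratio was not tested either. Of all sums, shares and ratios computed for the roles, only this ratio and that of inhibitory to stimulatory forms did not overlap. Among single genes tested, 10.3% did not overlap.

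The 3 PKA inhibitors are small proteins that block free catalytic subunits and carry them out of the nucleus. *Pkia* had 3819, 2416 and 2550 counts in the control mice and 3847, 3756 and 3150 in the *Slc39a8*-NSKO mice, or 49.5, 45.2 and 44.0 RPKM against 51.8, 51.8 and 45 RPKM. Control mice 1 and 2 and *Slc39a8*-NSKO mouse 3 lay inside the other genotype's range, and the log2 fold change was 0.10 ± 0.067 (SE), with an interval from -0.05 to 0.24 and an unadjusted p of 0.165 in edgeR's test. *Pkia* was 79.0% ± 2.04 (SD, n = 3) of the inhibitor RNA in control and 79.7% ± 1.02 (SD, n = 3) in *Slc39a8*-NSKO mice, ahead of *Pkig* at 8.90 RPKM and *Pkib* at 3.54 RPKM, neither of which separated the genotypes.

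CREB binds the palindrome TGACGTCA and, more weakly, its part TGACG, so that the promoters of PKA subunits were searched for these letters and set beside the promoter of *Nr4a1*, a CREB-responsive gene whose values are given further on. Each promoter window held 250 bases before and 50 after an annotated start site, from RefSeq on GRCm38.p6. The searched strings were TGACGTCA, which is its own reverse complement, and TGACG with its reverse complement CGTCA, and every TGACGTCA also holds both of these shorter strings. The following 250 bases before a start site are shown because *Prkar1a* was the only gene with the full palindrome among the members that have a RefSeq window, *Prkaca* encodes its catalytic partner, and *Nr4a1* had 4 short matches; capitals mark the matches, and all 3 lie on the plus strand, at chr11:109650699-109650948, chr8:83972728-83972977 and chr15:101266596-101266845 in that order.
Prkar1a: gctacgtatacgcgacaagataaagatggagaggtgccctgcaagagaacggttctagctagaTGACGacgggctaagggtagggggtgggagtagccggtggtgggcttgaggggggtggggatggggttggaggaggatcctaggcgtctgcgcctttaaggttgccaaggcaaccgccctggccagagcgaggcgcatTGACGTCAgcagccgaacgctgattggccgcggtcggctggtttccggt
Prkaca: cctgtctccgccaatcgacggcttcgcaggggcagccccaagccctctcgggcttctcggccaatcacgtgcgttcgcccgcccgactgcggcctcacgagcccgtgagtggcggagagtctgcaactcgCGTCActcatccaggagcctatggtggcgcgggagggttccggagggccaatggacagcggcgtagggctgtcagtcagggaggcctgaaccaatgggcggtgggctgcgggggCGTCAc
Nr4a1: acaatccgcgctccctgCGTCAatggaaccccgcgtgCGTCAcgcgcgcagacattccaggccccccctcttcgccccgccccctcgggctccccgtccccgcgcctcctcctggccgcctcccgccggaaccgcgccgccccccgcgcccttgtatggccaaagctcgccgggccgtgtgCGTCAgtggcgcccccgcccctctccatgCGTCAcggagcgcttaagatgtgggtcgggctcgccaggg

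In *Prkar1a* the palindrome began 49 bases before that start site. RefSeq windows were found for 31 of the 39 genes, 57 windows in all, and 2 windows, both of *Prkar1a* and overlapping each other, held TGACGTCA, which 1.79% of the 32851 windows of 27025 genes did. TGACG or CGTCA stood in 17 of the 57 windows, or 29.8%, spread over 13 genes, and in 20.8% of all windows. Of the CREB-responsive genes listed further on, 8 had windows, of which 0 of 10 held TGACGTCA and 7 held a short string. A match is a description of the letters and shows no binding, and no match says only that the letters are not in the window. *Prkar1a*, with the palindrome, and *Prkaca*, with 2 short strings, differed between the genotypes by no more than their errors, as given above.

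A-kinase anchors place PKA in the cell. *Akap7*, an anchor at the plasma membrane near ion channels, was highest per length at 17.5 RPKM, with 1561, 1118 and 1162 counts in the control mice and 1555, 1382 and 1568 in the *Slc39a8*-NSKO mice. The *Slc39a8*-NSKO mice included both the highest and the lowest of the 6, at 19.0 and 16.2 RPKM, and the log2 fold change was 0.03 ± 0.065 (SE), with an interval from -0.11 to 0.17 and an adjusted p of 0.994 in edgeR's test. *Akap11*, which also binds protein phosphatase 1 and glycogen synthase kinase 3, followed at 16.4 RPKM, with a range over the 6 mice that overlapped those of *Akap7* and *Akap8* and genotypes that overlapped too.

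*Akap8*, an anchor of the nuclear matrix, was 1 of 2 anchors with a fold change below 0 and the lowest of all 39 genes. It had 2176, 2022 and 1817 counts in the control mice and 2096, 2190 and 2109 in the *Slc39a8*-NSKO mice, or 12.1, 16.2 and 13.5 RPKM against 12.1, 13.0 and 12.9 RPKM. Control mouse 2 stood above the other 5 mice, and the genotypes overlapped. *Akap8* had a log2 fold change of -0.13 ± 0.086 (SE), with an interval from -0.32 to 0.05 and an unadjusted p of 0.14 in edgeR's test. *Akap1*, which tethers PKA to the outer membrane of mitochondria, had 708, 462 and 514 counts in the control mice and 706, 669 and 653 in the *Slc39a8*-NSKO mice, or 7.78, 7.32 and 7.52 RPKM against 8.05, 7.82 and 7.90 RPKM. All *Slc39a8*-NSKO mice lay above the control mice, by a small margin over control mouse 1. Its log2 fold change was 0.07 ± 0.066 (SE), with an interval from -0.07 to 0.21 and an unadjusted p of 0.306 in edgeR's test.

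The other 6 anchors overlapped between the genotypes, with log2 fold changes from -0.02 to 0.11. They were *Akap12* or gravin, a scaffold at the cell membrane, at 9.76 RPKM, *Akap6*, an anchor of the nuclear envelope, at 8.25 RPKM, *Akap9*, of the Golgi and centrosome, at 5.19 RPKM, and *Akap10*, of mitochondria and endosomes, at 4.74 RPKM. *Akap5*, which holds PKA at postsynaptic receptors, and *Akap13* were lowest at 1.10 and 0.629 RPKM. *Akap12* and *Akap6*, *Akap6* and *Akap1*, and *Akap9* and *Akap10* are neighbors whose ranges over the 6 mice overlapped.

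Of the Epac exchange factors, *Rapgef4* (Epac2), the neuronal form, had 3867, 2391 and 2821 counts in the control mice and 3740, 3484 and 3001 in the *Slc39a8*-NSKO mice, or 27.9, 24.9 and 27.1 RPKM against 28, 26.8 and 23.9 RPKM. The lowest and the highest mouse were again both *Slc39a8*-NSKO mice, and the log2 fold change was -0.02 ± 0.067 (SE), with an interval from -0.17 to 0.12 and an adjusted p of 0.994 in edgeR's test. *Rapgef3* (Epac1), the broadly expressed form, overlapped at a mean of 3.83 RPKM, and its reads cannot be told from those of its antisense partners where these share exonic bases.

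*Ppp1r1b* (chr11:98348404-98357796, plus strand) encodes DARPP-32, which blocks protein phosphatase 1 once PKA has phosphorylated it and is best known from striatal neurons, though Purkinje cells also make it. It had 5406, 3940 and 3972 counts in the control mice and 5163, 5807 and 4897 in the *Slc39a8*-NSKO mice, or 89.1, 93.6 and 87.2 RPKM against 88.3, 102 and 88.8 RPKM. *Slc39a8*-NSKO mouse 2 was the highest of the 6, and the other 5 mice lay close together. The log2 fold change was 0.05 ± 0.062 (SE), with an interval from -0.09 to 0.18 and an adjusted p of 0.994 in edgeR's test. Of 7 striatal markers, *Drd1*, *Drd2* and *Tac1* were at most at 1 CPM in every mouse, and the summed level of the 7 was 70.2 to 80.2 CPM in control and 70.7 to 81.7 CPM in *Slc39a8*-NSKO mice. Most of that sum was *Penk*, at 62.9 to 74.8 CPM over the 6 mice, and *Drd1*, *Drd2* and *Rgs9* were each higher in the *Slc39a8*-NSKO mice without overlap, at no more than 0.556 CPM in control and 0.85 CPM in *Slc39a8*-NSKO mice for *Drd2*. Of the 5 with enough counts, none passed edgeR's test, and their part in the level of *Ppp1r1b* was not tested. *Ppp1r1a*, the related inhibitor-1, overlapped at a mean of 12.4 RPKM.

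Across the roles, 6 of the 39 genes, or 15.4%, had no overlap in CPM between the genotypes, which held for 10.3% of all genes tested. Higher in the *Slc39a8*-NSKO mice were *Gnai3*, *Gnao1*, *Gnb1*, *Prkar1b* and *Akap1*, where 5.07% of all genes were, and lower was *Gnal*, where 5.26% of all genes were. Each of the 6 had an exact two-sided permutation p of 0.1, the smallest that 3 mice against 3 can give. That value follows from the lack of overlap by which they were picked and adds nothing to it. All 6 had 95% intervals that included 0 in edgeR's fit. The plot of all genes shows the 39 genes among those of like abundance.

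**Figure D3:**
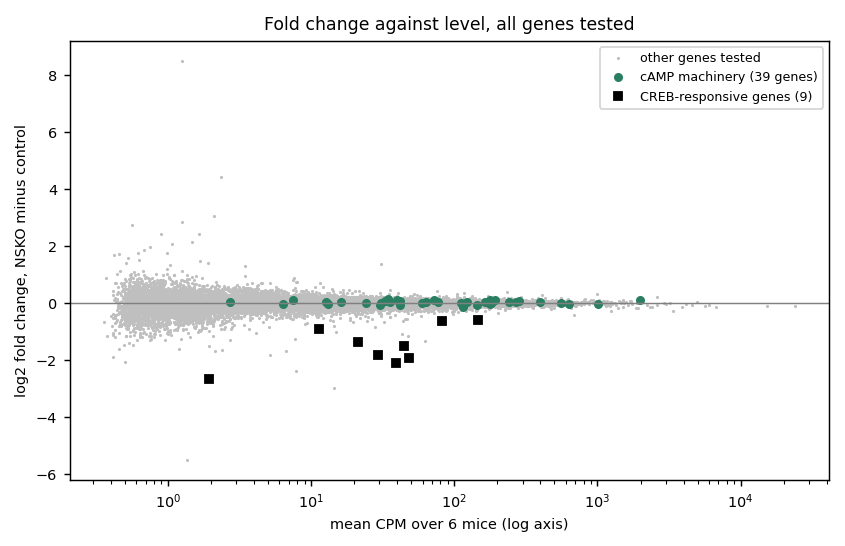
Log2 fold change of *Slc39a8*-NSKO against control mice plotted against mean level in CPM on a log axis for the 16330 genes tested, with the 39 genes and the 9 CREB-responsive genes marked. The 39 genes lie between -0.13 and 0.14, and the CREB-responsive genes lie between -2.65 and -0.59.

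The spread between mice of 1 genotype differed from gene to gene. The coefficient of variation among control mice ran from 0.0909% for *Gnao1* to 24.7% for *Adcy4* with a median of 5.93%, and among *Slc39a8*-NSKO mice from 0.388% for *Gnb1* to 25.8% for *Adcy7* with a median of 6.70%. Over all genes tested the medians were 8.04% and 7.27%. Control mouse 1 was the highest control mouse for 24 of the 39 genes, and 35.6% of all genes were highest in it, while control mouse 3 was the highest for 2, against 29.4% of all genes. *Slc39a8*-NSKO mouse 1 was the highest of its genotype for 22 of the 39, against 35.2% of all genes. As a description, the deviation from the genotype's mean correlated with log2 exon length over the 39 genes at r = 0.38 in *Slc39a8*-NSKO mouse 1 and r = -0.394 in *Slc39a8*-NSKO mouse 2, points that share a library, and over all genes at r = 0.091 and r = -0.084. Whether length had a part in these deviations was not tested. The plot of deviations by mouse shows each gene in each mouse.

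**Figure D4:**
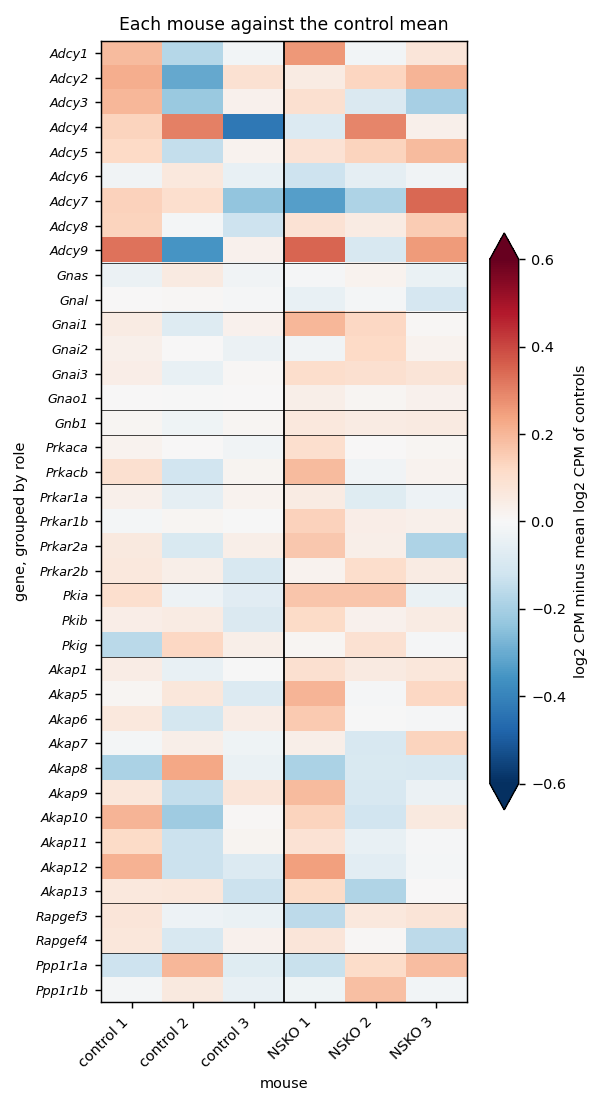
Difference in log2 CPM of each of the 39 genes from its control mean in each of the 6 mice, with genes in rows by role and a color scale in log2 units. Control mouse 1 is the highest control mouse for 24 genes and control mouse 3 for 2.

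A further 68 genes of the pathway were listed: other G protein subunits and chaperones, other A-kinase anchors, and other enzymes, effectors and phosphatases. Of these, 54 had enough counts to be tested and 0 passed in edgeR's test, while 2, or 3.7%, had an unadjusted p below 0.05. *Gng10*, a gamma subunit, had 384, 240 and 265 counts in the control mice and 445, 363 and 376 in the *Slc39a8*-NSKO mice, all of the latter higher after scaling. *Gng10* had a log2 fold change of 0.22 ± 0.094 (SE), with an adjusted p of 0.908 in edgeR's test.

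*Pakap*, the annotated fusion of the genes *Palm2* and *Akap2*, had estimated counts of 179.86, 49.75 and 56.29 in the control mice and 230.63, 160.61 and 172.41 in the *Slc39a8*-NSKO mice. Control mouse 1 lay among the *Slc39a8*-NSKO mice, and the log2 fold change was 0.83 ± 0.273 (SE) with an adjusted p of 0.75 in edgeR's test, or 1.45 with an adjusted p of 0.00333 without control mouse 1. None of its counts was whole, since its reads are divided with *Akap2* and *Palm2*. The sum of the 3 genes was 77.8 ± 4.2 CPM (SD, n = 3) among control and 81.0 ± 0.495 CPM (SD, n = 3) among *Slc39a8*-NSKO mice, and control mouse 1, at 81.9 CPM, was the highest of the 6, so that the genotypes overlapped.

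Of the 54 genes tested, 5 did not overlap between the genotypes, or 9.26%, near the 10.3% of all genes. The other genes among the 2 lowest p values within each list were *Gna11*, an alpha subunit that acts on phospholipase C, *Myrip*, an anchor on secretory organelles, *Arpp21*, a PKA substrate, and *Rap1b*, a GTPase that Epac activates. *Gna11* stood at 96.0 ± 0.180 CPM (SD, n = 3) among control and 100.4 ± 3.53 CPM among *Slc39a8*-NSKO mice. *Myrip* stood at 26.8 ± 1.69 and 29.8 ± 0.516 CPM, with an unadjusted p of 0.06 in edgeR's test. *Arpp21* stood at 87.2 ± 1.56 and 81.4 ± 2.16 CPM, and *Rap1b* at 60.8 ± 2.68 and 65.2 ± 0.776 CPM. These 4 and *Gng10* are the 5 without overlap, with *Arpp21* lower and the others higher in *Slc39a8*-NSKO mice, and the adjusted p values of the 4 in edgeR's test were 0.928 or above.

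At the far end of the pathway stand the CREB-responsive genes, of which 9 were listed: *Nr4a1*, *Nr4a2* and *Nr4a3*, which encode orphan nuclear receptors, *Fos*, *Fosb* and *Fosl2*, subunits of the transcription factor AP-1, the clock gene *Per1*, the kinase gene *Sik1*, and *Pde10a*, a phosphodiesterase that degrades cyclic AMP. The study picked out the first 7 on these same samples, and *Sik1* and *Pde10a* were added here with earlier results of the data known. The direction, size and test results of the 9 in these libraries are therefore not independent evidence. The same holds for their distance from the intervals of the 39 genes. By qPCR on separate RNA samples the study also reported *Nr4a2*, *Nr4a3*, *Per1* and *Fosb* as lower. All 9 fell in edgeR's test, where 0.0735% of all genes were lower, from -2.65 for *Fosb* to -0.59 for *Per1* on the log2 scale. *Nr4a1* had 1425, 974 and 957 counts in the control mice and 390, 413 and 566 in the *Slc39a8*-NSKO mice. The difference was -1.49 ± 0.122 (SE) on the log2 scale, with an adjusted p of 9.5e-05 in edgeR's test. *Per1* had the smallest of the 9 fold changes, and no interval of the 39 genes reached as low as the *Per1* estimate of -0.59. The lowest bound of the 39 was -0.45, for *Adcy4*, and that of *Adcy7* was -0.44. The intervals of *Per1*, from -0.81 to -0.38, and of *Pde10a*, from -0.84 to -0.4, overlapped those of *Adcy4* and *Adcy7*. The other CREB-responsive genes had upper bounds of -0.63 or lower, below every interval of the 39. RNA levels say nothing of the activity of cyclase or PKA or of the amount of cyclic AMP, none of which was measured in these data.

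The markers of Bergmann glia and astrocytes summed to 1802 to 2100.3 CPM in control and 2133 to 2205 CPM in *Slc39a8*-NSKO mice, and those of microglia to 66.1 to 74.6 CPM and 77.5 to 81.3 CPM. Neither sum overlapped between the genotypes, while the sum of every other marker list did. All 5 genes of each list had log2 fold changes above 0, with the largest at 0.40 for *Gfap* (adjusted p of 0.301 in edgeR's test) and 0.25 for *Csf1r* (adjusted p of 0.671). Singly, only *Aqp4* and *Gfap* of the first list and *Csf1r* of the second did not overlap, where 10.3% of all genes did not. Choroid plexus markers summed to 749 to 1085 CPM in control and 878 to 1524 CPM in *Slc39a8*-NSKO mice, again with 5 of 5 genes above 0. The largest was *Folr1* at 0.96 (adjusted p of 0.228 in edgeR's test), which did not overlap. None of these 15 genes passed the test, nor did any tested marker of oligodendrocytes, endothelium, cortex, midbrain or erythroid cells. The cortex marker *Neurod6* was lower in *Slc39a8*-NSKO mice without overlap, at -0.47 with an adjusted p of 0.678 in edgeR's test. *Emx1* of cortex and *Slc6a3*, *Slc6a4* and *Hoxb5* of midbrain and brainstem were too low to be tested.

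Of 6 cardiac muscle markers, 3 (*Myh6*, *Actc1* and *Tnnt2*) were called higher in edgeR's test, where 0.0245% of all genes were. *Nppa*, with 0, 0 and 1 counts against 12, 7 and 10, and *Myl7*, with 0, 0 and 0 counts against 3, 3 and 2, were too low to be tested and were also higher in each *Slc39a8*-NSKO mouse. The remaining marker, *Ryr2*, which neurons also express, overlapped at 197 to 236 CPM and made up most of the summed level of 208 to 238 CPM in control and 209.5 to 238 CPM in *Slc39a8*-NSKO mice. The part of glial, choroid plexus and cardiac markers in the levels of the 39 genes was not tested.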

How the data were processed

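The authors aligned paired-end reads of oligo-dT primed cDNA and deposited expected counts per gene and mouse, without normalization. The submitters' processing notes name mm10, STAR, RSEM, FastQC and DESeq2, and versions and the strand setting are not given in the sources used here. The 3 samples per genotype were taken as separate mice, as the methods state, though a legend speaks of technical triplicates, and if so the p values measure technical spread only. Library totals covered 53715 genes and left out 92 spike-in sequences.

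Counts were rounded and tested in R 4.3.3 with edgeR 4.0.16 (filterByExpr, TMM, glmQLFit and glmQLFTest, no covariate, Benjamini-Hochberg over 16330 genes, threshold 0.05). Exact permutation tests were two-sided. RPKM used union exon lengths of GENCODE M21 (GRCm38), which names 53620 of the genes. The 39 members, the lists and the naming rule were chosen with earlier results of these data known. The rule gives full values to members past the threshold, without overlap, among the 3 lowest p values or highest per role, and names the 2 lowest p values of each list. *Nr4a1*, *Pakap*, *Gng10* and *Slc39a8* stand by that rule or as checks. *Akap2*, *Palm2*, the markers and the genes that share exonic bases with members were named after their values were seen.

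Alternatives were DESeq2 1.42.0, limma-voom 3.58.1, other normalizations and filters, unrounded counts, a replicate block, longest transcripts and leaving out each mouse. On simulated data for this comparison with 200 of 16330 genes changed by a log2 fold of 1, edgeR recovered 75.5%, limma-voom 75.5% and DESeq2 74.0%. Of the genes they called, 6.21%, 6.21% and 5.13% were false, in that order. The changed genes were drawn at random and the counts used edgeR's own dispersions. No smaller change was simulated, so that recovery of changes within 1.5-fold is not known from it.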

Additional observations from a re-analysis of the deposited data

How the results depend on the processing

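The number of the 39 genes called stayed 0 under all 14 alternatives, in which their lowest adjusted p was 0.386 (*Akap8* without control mouse 1), and their median log2 fold change was 0.02 to 0.06 when 1 mouse was left out. In the 8 alternatives that kept all mice, no member changed direction. With each mouse left out in turn, 17 members kept their direction and the other 22 did not, with these lowest and highest log2 fold changes: *Adcy2* -0.03 to 0.22, *Adcy3* -0.17 to 0.04, *Adcy4* -0.12 to 0.19, *Adcy7* -0.27 to 0.09, *Adcy9* -0.01 to 0.33, *Gnas* -0.02 to 0.02, *Gnai2* -0.00 to 0.07, *Prkacb* -0.00 to 0.11, *Prkar1a* -0.05 to 0.01, *Prkar2a* -0.07 to 0.10, *Pkig* -0.05 to 0.10, *Akap6* -0.01 to 0.08, *Akap7* -0.03 to 0.09, *Akap9* -0.07 to 0.08, *Akap10* -0.08 to 0.13, *Akap11* -0.05 to 0.07, *Akap12* -0.05 to 0.17, *Akap13* -0.09 to 0.06, *Rapgef3* -0.05 to 0.07, *Rapgef4* -0.07 to 0.04, *Ppp1r1a* -0.01 to 0.16 and *Ppp1r1b* -0.02 to 0.09. Unadjusted p values in edgeR's test were below 0.05 for *Adcy1*, *Adcy5* and *Akap8* without the filter, against 5.45% of all genes. Without *Slc39a8*-NSKO mouse 3 they were for *Gnai1* and *Pkia*, against 4.76% of all genes. Of the other pathway genes, 1 (*Pakap*) was called without the filter and 0 to 1 with a mouse left out, and 6 to 9 CREB-responsive genes were. Over all genes edgeR called 16, against 178 without the filter, 37 by DESeq2, 38 with control mouse 1 and 9 with *Slc39a8*-NSKO mouse 2 left out; the cause was not tested. With the replicate number as a block, edgeR called 41 genes and 0 of the 39, of which *Adcy1* (unadjusted p 0.0184) and *Adcy9* (unadjusted p 0.0434) were below 0.05 before adjustment, as were 7.44% of all genes. Same-numbered mice correlated in their deviations at 0.142, 0.116 and 0.01, and control mouse 3 more with *Slc39a8*-NSKO mouse 1, so that the numbers were not taken as pairs. With the longest annotated transcript as length, the mean over all mice was 10.2 for *Gnas* over *Gnal*, 0.885 for inhibitory over stimulatory alpha subunits, 136 RPKM for catalytic and 301 RPKM for regulatory PKA subunits and 2.21 for their ratio, 94.8% for type I, 59.2% for *Prkaca*, 69.8 RPKM for PKA inhibitors and 70.6% for *Pkia*, 122 RPKM for anchors and 10.9 for *Ppp1r1b* over *Ppp1r1a*, by the construction of this length. With 3 mice a genotype, *Adcy4* and *Adcy7*, at 30 to 152 counts, allow the least firm statement.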
